A study of Mus musculus with 6 samples.

Results

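The genes described here are 6 pigment cell genes, Mitf, Pmel, Mlana, Tyr, Tyrp1 and Dct, chosen by symbol from the deposited table of RNA-Seq counts. All 6 are among the 13024 genes of that table. The libraries were made from lenses of E14.5 mouse embryos, and the study asked how lens fibre differentiation changes when the transcription factor gene Gata3 is inactivated in the lens. There were 3 control and 3 Gata3 CKO (conditional knockout) libraries, and each was a separate pool of 10 lenses from 5 embryos. The CKO pools were Gata3 f/f with Pax6-Cre, a transgene under the Pax6 ectoderm enhancer and P0 promoter that is active in the ectoderm from which lens and cornea form. The control genotype is given in 3 ways: the labels call these pools wild type, the Results of the study Gata3 f/wt without Cre and its Methods Gata3 f/f, so they are called control here, and only CKO pools carried Cre. All pools were on a mixed C57BL/6 and FVB background. FVB mice are albino through a variant of Tyr, and counts per gene do not show which alleles a pool held.

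Melanin is made inside melanosomes, organelles of pigment cells. In the eye these cells are the retinal pigment epithelium, which continues into the pigmented layer of the ciliary margin next to the lens, and melanocytes that arrive from the neural crest. Lens cells themselves are not pigmented. Mitf, the master transcription factor of pigment cells, activates genes for the melanosome scaffold (Pmel, with the membrane protein Mlana) and for the enzymes that turn tyrosine into melanin (Tyr, then Dct and Tyrp1). It binds a short element called the M-box, described in the promoters of Tyr, Tyrp1 and Dct.

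Between 15157230 and 18811104 fragments were counted in a library. Values are given as CPM, in which a gene's counts are scaled to libraries of equal size by edgeR's TMM method. Differences between groups are given as log2 changes, CKO against control, with their standard error (SE). For Gata3, the targeted gene, control replicates 1, 2 and 3 held 202, 386 and 156 counts, whereas 910, 1064 and 894 were found where the label is CKO. Its count was thus higher where the label names its loss, and directions below are those of the libraries labelled CKO. Control replicate 2 also stood apart in its crystallins, lens proteins that took 16.5% of its counts and between 5.48% and 9.31% elsewhere. Whether exon sequence was lost from the Gata3 transcript cannot be read from counts per gene. The study itself reports, from its RNA-Seq, that the targeted Gata3 exon was excised in mutant lenses. Bfsp2, which the study reports as downregulated in mutants, was lower in every CKO pool than in every control pool. Its log2 change was -1.55 (SE 0.34).

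Mitf lies on the forward strand at chr6:97807052-98021349 (mm10, GENCODE M21), Pmel on the forward strand at chr10:128704195-128720238 and Mlana on the forward strand at chr19:29697824-29708634. Tyr lies on the reverse strand at chr7:87424771-87493512, Tyrp1 on the forward strand at chr4:80834123-80851719 and Dct on the reverse strand at chr14:118012790-118052244. The 6 genes are therefore on 6 chromosomes. Exons of Pmel share 34 bases with Cdk2 and 105 with Dgka, both on the opposite strand. The strand option of the counting is not given in the sources used here, so fragments from those shared bases cannot be assigned.

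Promoter sequences of 250 bases before to 50 bases after the start site were found for 4 of the 6 genes, Tyr, Tyrp1, Dct and Mitf, in the RefSeq table of the build GRCm38.p6, the assembly of mm10. The promoters of Tyr, Tyrp1 and Dct were searched on both strands for the core of the M-box, TCATGTG, which contains the E-box CATGTG. The M-box is already described in these promoters, so the search shows where it lies and tests nothing about the libraries. Each of the 3 held it, as did 3.77% of all 32851 promoters of the table. The matches lie at -22 from the start site in Tyr (chr7:87493517-87493545, reverse strand), at -47 in Tyrp1 (chr4:80834155-80834183, forward strand) and at -151 in Dct (chr14:118052380-118052408, reverse strand). A reverse complement of it begins at -232 in Dct (chr14:118052461-118052489, reverse strand). Positions are counted from start sites of the RefSeq table, and the one used for Tyrp1 lies inside the gene as placed above, as does the one used below for Mitf. The windows are written 5′ to 3′ along the gene, with the matched letters in capitals.
Tyr: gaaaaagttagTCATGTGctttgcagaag
Tyrp1: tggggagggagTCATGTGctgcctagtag
Dct: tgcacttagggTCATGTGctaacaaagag
Dct, reverse complement: cttggctgggaCACATGAgcccaataaag

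The run that the windows of Tyr, Tyrp1 and Dct with the core as written share without a break is longer than the core, GTCATGTGCT. The reverse complement window of Dct does not hold it. It was taken from the windows of Tyr, Tyrp1 and Dct, so these genes hold it by construction. Of 27025 genes, 42 (0.155%), these among them, have a promoter that holds this run on either strand. The longer sequences before the start sites of Tyr (chr7:87493513-87493762) and Dct (chr14:118052247-118052496), both on the reverse strand, show where the core stands. In Tyr the 1 match is close to the start, and in Dct the 2 matches lie farther from it.
Tyr, 250 bases: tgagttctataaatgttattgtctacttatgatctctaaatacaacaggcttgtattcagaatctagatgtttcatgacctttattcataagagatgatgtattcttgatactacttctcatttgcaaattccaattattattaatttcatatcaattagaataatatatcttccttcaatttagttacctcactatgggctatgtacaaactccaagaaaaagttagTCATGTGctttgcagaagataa
Dct, 250 bases: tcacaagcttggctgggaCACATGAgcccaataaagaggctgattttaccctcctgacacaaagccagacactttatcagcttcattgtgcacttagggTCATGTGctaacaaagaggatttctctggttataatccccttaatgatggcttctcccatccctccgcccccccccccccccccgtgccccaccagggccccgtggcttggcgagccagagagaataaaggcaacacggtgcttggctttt

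Of the 3 promoters listed for Mitf, 0 held TCATGTG and 1 held TGACGTCA, the palindromic cAMP response element through which the melanocyte promoter of Mitf is known to respond to cAMP. This element stood in 1.79% of all promoters. In Mitf it begins at -153 (chr6:97991619-97991648, forward strand). These matches are descriptions of the sequence, and binding was not measured.
Mitf: gaaaaaaagcaTGACGTCAagccagcaggg

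Pmel, the protein that forms the fibrils on which melanin is laid down, was at 169, 36.7 and 27.9 CPM in control replicates 1, 2 and 3. The CKO pools, in the same order, had 41.2, 166 and 34.8 CPM. It was thus high in 1 pool of each group, control replicate 1 and CKO replicate 2, and the groups overlapped. Over 3 pools the level was 78.0 ± 79.2 CPM (SD, n = 3) in the control pools and 80.7 ± 74.0 (SD, n = 3) in CKO pools. The second highest library was 4.03-fold above the next one, and the remaining 4 lay between 27.9 and 41.2 CPM. In whole lenses, a change in the number of pigment cells and a change in RNA per pigment cell cannot be told apart.

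Dct, the dopachrome tautomerase of the pathway to brown-black melanin, was at 71.3, 14.7 and 13.5 CPM in control and at 14.0, 76.4 and 13.1 CPM in CKO. The same 2 pools were high, and the other 4 lay between 13.1 and 14.7 CPM. Means were 33.2 ± 33.0 CPM (SD, n = 3) in the control pools and 34.5 ± 36.3 (SD, n = 3) in CKO pools.

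Tyr encodes tyrosinase, the rate-limiting enzyme of melanin synthesis. It was at 31.5, 6.98 and 5.14 CPM in control and at 7.52, 34.5 and 5.93 CPM in CKO. Again control replicate 1 and CKO replicate 2 stood apart, with the highest value in CKO and the lowest in control. Means were 14.53 ± 14.7 CPM (SD, n = 3) in the control pools and 16.0 ± 16.1 (SD, n = 3) in CKO pools.

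Tyrp1, the tyrosinase-related protein that acts late in the pathway and stabilises tyrosinase, was at 32.4, 8.46 and 6.03 CPM in control and at 7.46, 31.5 and 5.41 CPM in CKO. Here the highest value was in control and the lowest in CKO, so its order of libraries differed from that of Tyr at both ends, while the 2 high pools were the same. Means were 15.6 ± 14.6 CPM (SD, n = 3) in the control pools and 14.8 ± 14.497 (SD, n = 3) in CKO pools.

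Mlana, a small melanosome membrane protein that associates with Pmel, had the fewest counts, 72, 6 and 13 in control and 22, 81 and 27 in CKO. The count of 6 in control replicate 2 has an exact 95% Poisson interval of 2.202 to 13.1, and the 13 of control replicate 3 one of 6.92 to 22.2. These 2 pools therefore cannot be ordered at this depth, and intervals cover counting error only. On the CPM scale Mlana was at 4.56, 0.423 and 0.726 in control and at 1.43, 4.12 and 1.40 in CKO. The 2 high pools were again control replicate 1 and CKO replicate 2. Means were 1.90 ± 2.31 CPM (SD, n = 3) in the control pools and 2.32 ± 1.56 (SD, n = 3) in CKO pools.

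Mitf was at 31.7, 31.3 and 16.5 CPM in control and at 14.8, 27.9 and 12.0 CPM in CKO. It differed from the other 5 genes in that control replicate 2, where they were low, was as high as control replicate 1. CKO replicate 2 was again the highest pool of its group. The highest library was 2.65-fold above the lowest for Mitf, against 5.85-fold to 10.8-fold for the other 5. Means were 26.5 ± 8.69 CPM (SD, n = 3) in the control pools and 18.2 ± 8.50 (SD, n = 3) in CKO pools, and the groups overlapped. Mitf is also made outside pigment cells, for example in macrophages and mast cells.

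**Figure D1:**
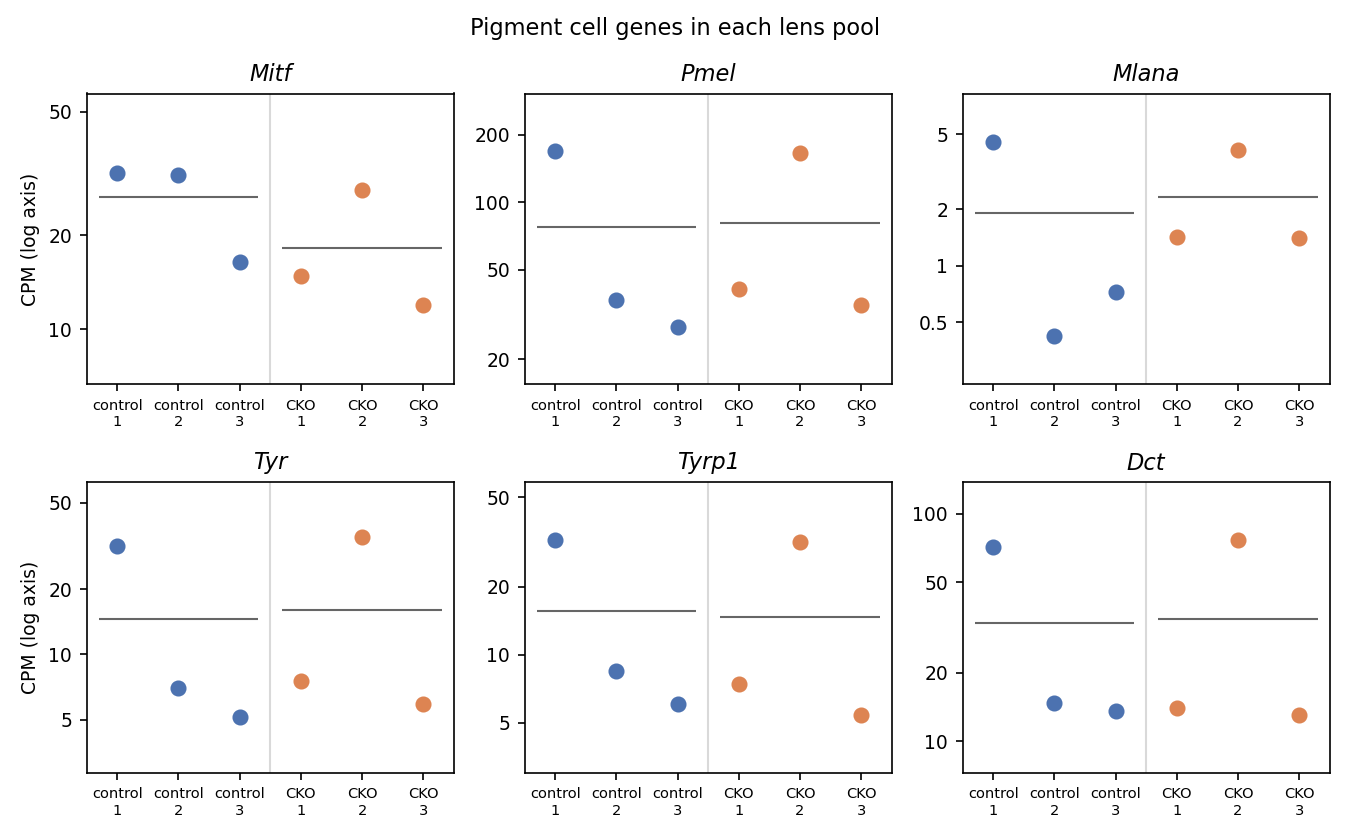
Level of each pigment cell gene in each library, in CPM on a log axis, with control pools in blue, CKO pools in orange and the mean of each group as a line. Pmel, Mlana, Tyr, Tyrp1 and Dct are high in control replicate 1 and CKO replicate 2, with Pmel at 169 and 166 CPM, and Mitf is as high in control replicate 2.

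The width of this variation was unusual for the table. For the median gene tested, the highest library was 1.36-fold above the lowest. Tyr spanned 6.72-fold, a width reached by 1.56% of the 12879 genes tested, and Tyrp1, Dct and Pmel spanned 5.98-fold, 5.85-fold and 6.06-fold. Mlana spanned 10.8-fold, with few counts in its lowest library. A width like that of Mitf was reached by 9.70% of genes. Having control replicate 1 and CKO replicate 2 as the 2 highest libraries, a pattern defined after the values were seen, held for 5 of the 6 pigment cell genes (not for Mitf) and for 7.1% of all genes tested (914 genes).

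Levels can be compared between genes only per length, and a gene said below to lead a list is the one that adds most CPM to its sum, whatever its length. Per kilobase of exon, Pmel was at 73.8 CPM in control replicate 1 and 72.5 in CKO replicate 2, the highest of the 6 genes in both. It was also the highest in each of the other 4 libraries, where it lay between 12.2 and 18.0 CPM per kilobase. Dct came next in those 2 high pools, at 12.1 and 12.97, with Tyrp1 close to it at 11.4 and 11.1. Tyr and Mlana were lower there, at 4.43 and 4.86 for Tyr and 4.32 and 3.90 for Mlana. Mitf was at 5.12 and 4.51 per kilobase in the same 2 pools. In the other 4 libraries Mitf was above Dct, Tyrp1 or both. In control replicate 2 it was at 5.05 per kilobase, against 2.99 for Tyrp1 and 2.498 for Dct, and in control replicate 3 at 2.66, against 2.13 and 2.29. The lengths are those of all annotated exons of a gene together, so a gene with many isoforms, such as Mitf, is placed too low.

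Although their summed level moved up and down between pools, the proportions among the 5 genes downstream of Mitf moved less than that level. Pmel made up 54.8%, 54.6% and 52.4% of the counts of the 5 genes in control, and 57.5%, 53.1% and 57.4% in CKO. Its highest and lowest share differed by a factor of 1.10. The interval of its share was 53.4% to 56.2% in control replicate 1 and 51.9% to 54.4% in CKO replicate 2 (95%, exact binomial, as for the other shares), which overlap, whereas that of CKO replicate 1, 54.5% to 60.5%, and that of CKO replicate 3, 54.5% to 60.3%, do not overlap the one of CKO replicate 2. Tyr held between 9.63% and 11.04% in all libraries, a factor of 1.15. Dct held between 19.6% (17.3% to 22.03%) in CKO replicate 1 and 25.3% (22.6% to 28.2%) in control replicate 3, and these intervals do not overlap. For Tyrp1 the share was 12.6% (10.5% to 14.8%) in control replicate 2 and 8.93% (7.35% to 10.7%) in CKO replicate 3, so these extremes overlap narrowly. Mlana moved most, from 0.628% (0.231% to 1.36%) in control replicate 2 to 2.32% (1.53% to 3.35%) in CKO replicate 3, and these intervals do not overlap.

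Mitf did not keep a fixed ratio to these 5 genes. There were 10.3, 46.5 and 30.9 Mitf counts per 100 counts of the 5 genes in control, and 20.7, 8.93 and 19.7 in CKO. The ratio was lowest in the 2 pools where the 5 genes were high, and highest in control replicate 2.

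**Figure D2:**
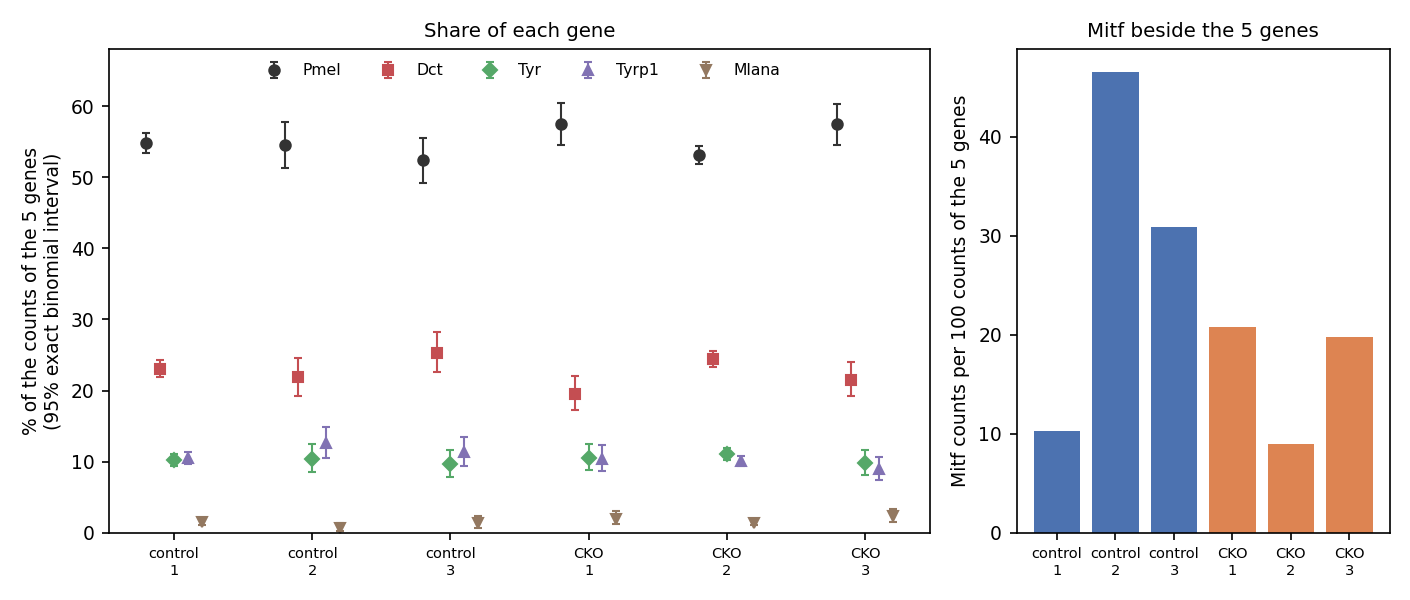
Left, share of Pmel, Dct, Tyr, Tyrp1 and Mlana in the counts of these 5 genes in each library, in percent with 95% exact binomial intervals; right, Mitf counts per 100 counts of the 5 genes, control in blue and CKO in orange. Pmel stays between 52.4% and 57.5%, while the Mitf ratio runs from 8.93 to 46.5.

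The genotype comparison was made with edgeR's quasi-likelihood test on the genes that reached 10 counts in 3 or more libraries, with Benjamini-Hochberg adjustment at 0.05. All 6 pigment cell genes passed that filter, and 0 of 6 had an adjusted p under 0.05, against 0 of 12879 genes tested (0%). At an unadjusted p under 0.05 there were 0 of the 6 and 457 of all genes (3.55%), and DESeq2's Wald test gave 0 of the 6 and 85 of all genes (0.66%) with an adjusted p under 0.05. For 0 of the 6 genes did the CKO values all lie above or all below the control values, as they did for 8.36% of all genes tested.

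Fold changes were close to 0 for the enzymes and their scaffold, but with wide intervals. Tyr showed a log2 change of 0.14 (SE 0.92, 95% interval -2.05 to 2.34) and an adjusted p of 0.9998 in edgeR. Tyrp1 had -0.07 (0.87, -2.16 to 2.01), Dct 0.06 (0.92, -2.15 to 2.28) and Pmel 0.05 (0.87, -2.04 to 2.14), all with an adjusted p of 0.9998 in edgeR. These intervals allow a change of more than 4-fold in either direction, so a sizeable difference between the genotypes was not detectable with these pools. Mlana had 0.29 (0.91, -1.89 to 2.47), and the exact two-sided permutation test over the 6 libraries gave p between 0.60 for Mlana and 1.0 for Dct, where the smallest p that 3 pools against 3 allow is 0.10.

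Mitf had the most negative fold change, -0.53 (0.38, -1.46 to 0.39), with an adjusted p of 0.9998 in edgeR and an exact permutation p of 0.20. Its interval was the narrowest of the 6. The median log2 change of the 6 genes was 0.06, against 0.0019 over all genes tested, and 4 of the 6 were above 0. For Tyrp1 the sign depended on the scaling: with total counts and no TMM factors it was 0.015, while the median of all genes moved to 0.10.

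The sign of the comparison rested on single pools. Without control replicate 1, the log2 changes of Tyr, Tyrp1, Dct, Pmel and Mlana were 1.43, 1.06, 1.31, 1.34 and 2.01, and the median of the 6 genes was 1.33. Without CKO replicate 2 they were -1.11, -1.28, -1.29, -1.04 and -0.43, with a median of -1.08. Without control replicate 2 or control replicate 3 the median was -0.27 or -0.33, and without CKO replicate 1 or CKO replicate 3 it was 0.40 or 0.43. In none of these fits was the edgeR adjusted p of a pigment cell gene under 0.05, and the lowest was 0.545, for Mitf without control replicate 3. Mitf alone kept its sign with each library left out, between -0.98 and -0.30. The 95% interval lay to 1 side of 0 for Mlana without control replicate 1 (0.24 to 3.77) and for Mitf without CKO replicate 2 (-1.78 to -0.18), and in the other such fits it contained 0.

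Leaving out control replicate 1 and CKO replicate 2 together, an alternative chosen after the values were seen, left 2 pools a group. Tyr then showed a log2 change of 0.16 (SE 0.31, 95% interval -0.64 to 0.97), and Dct had -0.05 (0.19, -0.54 to 0.44). The interval of Dct was thus much narrower than with all libraries. Pmel had 0.24 (0.20, -0.27 to 0.76) and Tyrp1 -0.16 (0.33, -1.01 to 0.69). Mlana, on low counts, had 1.28 (0.52, -0.05 to 2.61), and Mitf had -0.82 (0.36, -1.76 to 0.11). All 6 had an adjusted p of 0.9999 in edgeR. The CKO and control values of Mlana and Mitf did not overlap in these 4 pools (2 of 6 genes), as for 21.5% of all genes tested.

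**Figure D3:**
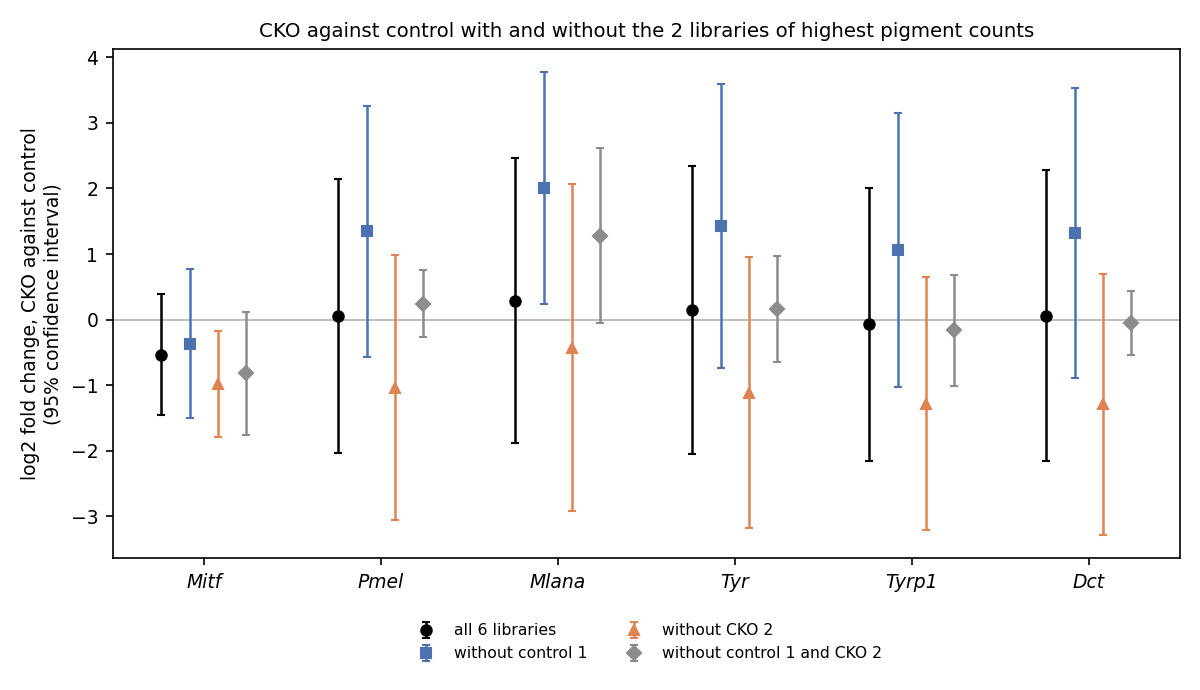
Log2 fold change of each pigment cell gene, CKO against control, with 95% confidence intervals from edgeR's quasi-likelihood fit, for all 6 libraries (black), without control replicate 1 (blue), without CKO replicate 2 (orange) and without both (grey). Pmel, Tyr, Tyrp1 and Dct lie near 0 with all libraries and move above or below it when either pool is left out, from 1.43 to -1.11 for Tyr.

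Other melanosome proteins typical of pigment cells partly shared the pattern. Of 10 such genes, 7 were in the table (Slc45a2, Gpr143 and Bace2 were not in the table analysed here), 2 were higher and 5 lower in CKO, none with an adjusted p under 0.05 in edgeR, with a median log2 change of -0.20. Control replicate 1 and CKO replicate 2 were the 2 highest libraries for 4 of the 7, beside 7.1% of all genes tested. These were Gpnmb, Trpm1, Slc24a5 and Tspan10. Of all 10 listed genes, 6 had a promoter sequence, and 4 of those held TCATGTG (Slc24a5, Slc7a11, Trpm1 and Tspan10), as did 4.31% of all genes. Among lists described below, 2 of 5 macrophage markers with a promoter sequence held it (C1qb and C1qc). So did 1 of 23 trafficking genes and 0 of 11 lens markers. Gpnmb, a relative of Pmel, was at 34.4, 6.34 and 5.25 CPM in control and at 6.81, 38.4 and 4.53 CPM in CKO. Trpm1, a channel gene known as a Mitf target that neurons of the retina also use, had the highest mean CPM of the 7, not scaled by length, and varied less, at 160, 112 and 62.9 CPM in control and 65.7, 157 and 66.2 in CKO. Slc24a5, the melanosome ion exchanger, and Tspan10, a tetraspanin of pigment epithelium, were picked after their values were seen, and spanned 6.66-fold and 6.77-fold between libraries, close to the span of Tyr. Slc7a11, the cystine transporter, which many cell types use, was instead highest in control replicate 2, at 178 CPM. It was at 87.5 CPM in control replicate 1 and 54.7 in CKO replicate 2. Rab38 was also highest in control replicate 2, at 20.3 CPM against 17.9 in control replicate 1 and 17.7 in CKO replicate 2. Oca2, picked after its values were seen, was highest in control replicate 1 at 16.9 CPM. Control replicate 2 came next for Oca2, at 13.7 CPM, with CKO replicate 2 close to it at 12.8.

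The machinery that sorts cargo to melanosomes also serves lysosomes in other cells, and most of its genes did not follow the pigment cell genes. Of 26 trafficking genes, 25 were in the table (not Mlph), 14 were higher and 11 lower in CKO, and 0 had an adjusted p under 0.05 in edgeR (median log2 change 0.01). Their summed level was 1144, 1251 and 1123 CPM in control and 1145, 1116 and 1086 CPM in CKO, led by the motor gene Myo5a. Rab27a, the GTPase that tethers melanosomes to the actin cortex, had 13.1, 5.14 and 4.75 CPM in control and 6.22, 14.6 and 5.15 in CKO. It was the only 1 of the 25 highest in the 2 pools where Tyr was high, beside 7.1% of all genes tested. Tpcn2 and Atp7a, picked after their values were seen, had a Pearson r of 0.756 and 0.684 with the mean standardised level of the pigment cell genes over the 6 libraries. Over the 25 genes this r ran from -0.712 for Bloc1s6, also picked after its values were seen, to 0.984 for Rab27a. Ap3b1, Bloc1s5 and Rab32 (3 of 25, beside 8.36% of all genes tested with groups that did not overlap) were lower in every CKO pool than in every control pool, with log2 changes of -0.23, -0.10 and -0.51 and an adjusted p of 0.9998 in edgeR.

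Genes upstream of Mitf or related to it were not, as a list, highest where the Mitf targets were. Lef1, a factor of the Wnt pathway picked after its values were seen, was highest in the 2 pools where Tyr was high. It was the only 1 of the 10 genes tested with that pattern, beside 7.1% of all genes tested. Of 15 genes, 10 were in the table, 5 higher and 5 lower in CKO, with 0 past the adjusted threshold in edgeR and a median log2 change of -0.01. Sox10, Pax3, Tfec, Pax2 and Irf4 were not in the table analysed here. The highest mean CPM was that of Pax6, which the lens itself expresses, and the list summed to between 1111 and 1304 CPM. Of the close relatives of Mitf, Tfeb was at 4.75, 9.23 and 5.53 CPM in control and 3.50, 3.25 and 3.33 in CKO, a log2 change of -0.95 (SE 0.29, adjusted p = 0.997 in edgeR). Tfe3 was at 39.5, 44.5 and 40.1 CPM in control and 47.1, 46.9 and 47.3 in CKO, a log2 change of 0.19 (SE 0.08, adjusted p = 0.9998 in edgeR). Neither of the 2 followed the pools that were high for the Mitf targets, and both had groups that did not overlap (2 of 10 genes, beside 8.36% of all genes tested). Otx2, which acts with Mitf in the pigment epithelium and is also made by retinal neurons, was at 81.0, 38.4 and 110 CPM in control and 80.3, 70.8 and 84.8 in CKO, unlike Tyr or Mitf.

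Among ligands and receptors of melanocytes, 6 of 10 were in the table, 3 higher and 3 lower in CKO, with a median log2 change of 0.12 and 0 past the adjusted threshold in edgeR. Ednrb, the endothelin receptor of melanoblasts, which other cell types also carry, was at 103, 138 and 69.3 CPM in control and 254, 233 and 183 in CKO. The log2 change was 1.11 (SE 0.26), with an adjusted p of 0.638 in edgeR and 0.00328 in DESeq2. It led this list, whose sum was 193, 198 and 170 CPM in control and 338, 322 and 260 in CKO. Its 3 CKO values lay above all control values (1 of 6 genes, beside 8.36% of all genes tested with groups that did not overlap), a pattern that none of the 6 pigment cell genes shared. Of these 6 genes, 2 were highest in the 2 pools that were high for Tyr, beside 7.1% of all genes tested. Edn3, a ligand of Ednrb picked after its values were seen, was 1 of them. It was low, at 3.42, 2.33 and 1.34 CPM in control and 1.75, 6.10 and 2.19 in CKO. The other was Kitl, the ligand that melanoblasts need to survive. It lay between 24.5 and 32.9 CPM in all pools, and its receptor Kit was at 31.6, 21.5 and 43.2 in control and 31.9, 29.8 and 31.0 in CKO.

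Markers of the cell types that could carry pigment, or that lie next to the lens, were set beside these values, and their part in the variation of the pigment cell genes was not tested. Of markers of neural crest melanocytes, Sox10, Pax3, Mc1r, Erbb3 and Foxd3 were not in the table analysed here, and Kit, given above, is also made by other cells. No values are given for that list as a whole. Of 12 retinal pigment epithelium markers, 6 were in the table (Otx2, given above, among them), and Rpe65, Rgr, Best1, Lrat, Slc16a8 and Slc6a20a were not. Of the 6, 1 was higher and 5 were lower in CKO (median -0.12), their sum was 221, 192 and 203 CPM in control and 171, 191 and 181 in CKO, and the highest mean CPM was that of Stra6. Highest in the pools that were high for Tyr were 2 of the 6, beside 7.1% of all genes tested. Rlbp1, the retinoid carrier of this epithelium, was 1 of these 2, at 11.1, 4.65 and 3.02 CPM in control and 3.57, 9.61 and 4.42 in CKO.

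Of 7 ciliary margin markers 6 were in the table, 2 higher and 4 lower in CKO (median -0.03), and their sum, led by Ccnd2, a cyclin that many dividing cells make, was 867, 1252 and 670 CPM in control and 911, 939 and 838 in CKO. Of the 6, 2 were highest in the pools that were high for Tyr, while Ccnd2, Otx1 and Msx1 were highest in control replicate 2, and Mab21l1 was lowest in those pools, at 128 CPM in each against 140 to 154 elsewhere. Wnt2b, 1 of the 2 and picked after its values were seen, had 6.40, 1.76 and 1.45 CPM in control and 2.204, 11.1 and 2.81 in CKO, with the same 2 high pools as Tyr and Dct. Of 14 neural retina markers, 0 were highest in those pools, beside 7.1% of all genes tested. They summed to 2955, 1783 and 3955 CPM in control and 2985, 2712 and 3639 in CKO, led by Fgf15, and all 14 had fold changes above 0 (median 0.16) with 0 past the adjusted threshold in edgeR. Where Pmel was at 169 and 166 CPM, the retina sum was thus near the middle of its range.

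Of these cell type lists, the one of mesenchyme had the largest share of genes with the pattern of Tyr and Dct. Of its 12 genes 11 were in the table, 10 of them highest in control replicate 1 and CKO replicate 2, against 7.1% of all genes. They summed to 2394, 685 and 319 CPM in control and 363, 4206 and 621 in CKO, led by the collagen gene Col1a2. Their spread was wider than that of the pigment cell genes, 13.2-fold for the sum against 4.88-fold. The mesenchyme sum was higher in CKO replicate 2 than in control replicate 1, whereas the pigment cell genes summed to 341 CPM in both. Pdgfra was the mesenchyme gene without the pattern, at 166, 215 and 81.3 CPM in control and 123, 161 and 109 in CKO. The 11 genes had 10 fold changes above 0 (median 0.61) and 0 past the adjusted threshold in edgeR, and without those 2 pools 5 were above 0 (median -0.06). Of 7 surface ectoderm markers, 5 were highest in the same 2 pools, though for 3 of the 5 control replicate 1 was at most 1.06-fold above the next library. Their sum, led by Krt5, was 96.7, 89.7 and 38.0 CPM in control and 53.7, 154 and 68.2 in CKO, with 5 higher and 2 lower (median 0.34), and without those 2 pools 2 higher and 5 lower (median -0.03).

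Lens markers and blood markers were instead highest in control replicate 2, the pool in which Mitf was high and the other 5 pigment cell genes were not. The 13 lens markers, the defining genes of the labelled tissue, were all in the table and led by Cryaa. They summed to 63551, 124724 and 43498 CPM in control and 54874, 43995 and 40794 in CKO, 2 higher and 11 lower (median -0.55). Blood markers, 6 of 7 in the table with Hba-a2, Hbb-bs and Hbb-bt listed at 0, summed to 531, 1267 and 346 CPM in control and 279, 409 and 399 in CKO, led by Hbb-y, and all 3 tested were lower (median -0.98). Macrophage markers, 6 of 7 in the table and all 6 lower (median -0.45), summed to 95.1, 126 and 67.9 CPM in control and 56.5, 79.9 and 60.5 in CKO, led by Csf1r, an order of control pools that was not that of Tyr. The 7 vessel markers, 1 higher and 6 lower (median -0.39), summed to 326, 316 and 256 CPM in control and 229, 286 and 230 in CKO, led by Kdr. None of these lists had a gene with an adjusted p under 0.05 in edgeR, while DESeq2 gave the lens beaded filament genes Bfsp1 and Bfsp2 adjusted p of 0.000778 and 0.000446.

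**Figure D4:**
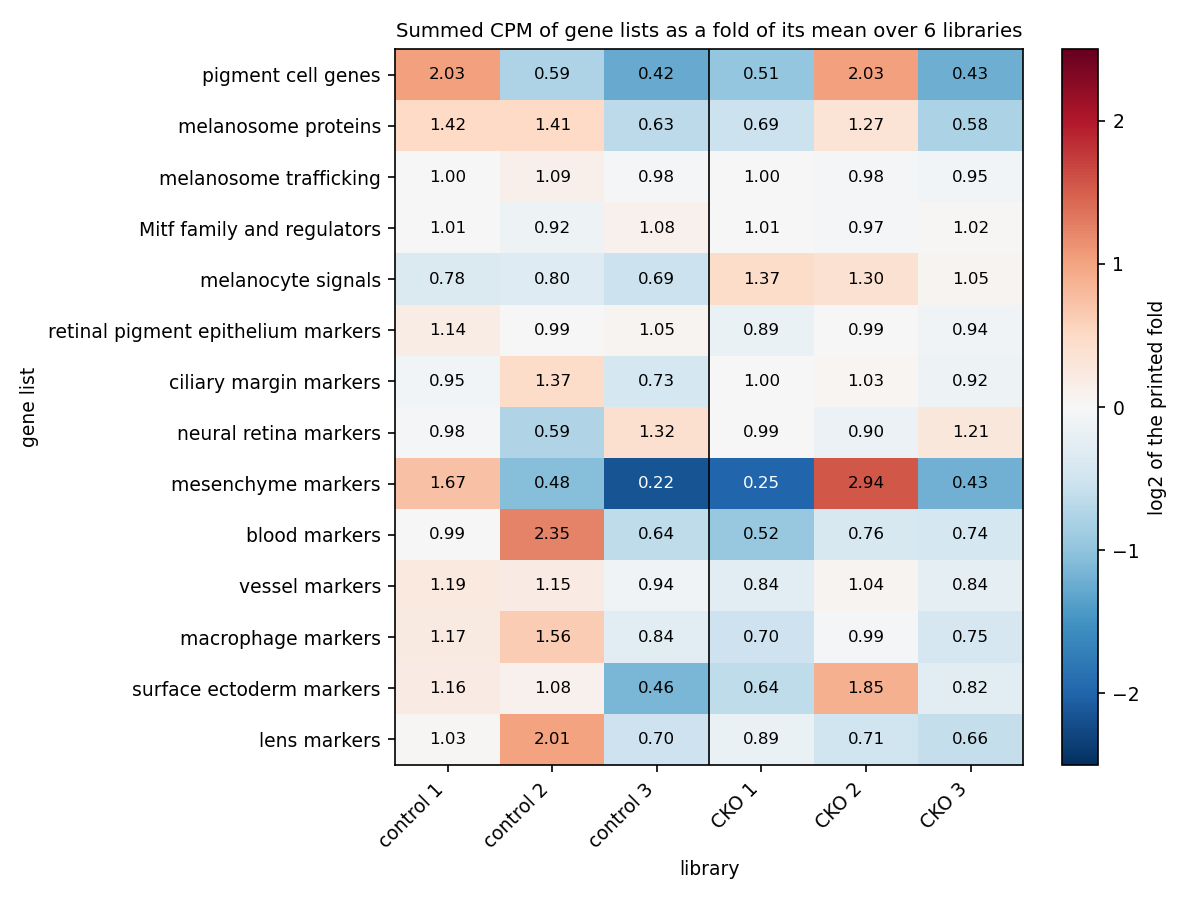
Summed CPM of the gene lists for which a sum is given here, in each library, as a fold of its mean over the 6 libraries (printed), coloured on a log2 scale. The pigment cell genes are at 2.03-fold in control replicate 1 and CKO replicate 2 and at 0.59-fold or less elsewhere, and mesenchyme markers are high in the same pools.

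The 10 genes outside the list whose log2 CPM followed the pigment cell genes most closely had a Pearson r of 0.982 to 0.996 with their mean standardised level over the 6 libraries. Of 12787 genes that could be compared, 68 (0.532%) had an r of at least 0.95. In order they were Gpnmb, Fam46a, Arhgap20, Cpxm2, Aqp1, C130021I20Rik, Sema3c, Nrp2, Rab27a and Ing4. Gpnmb and Rab27a are melanosome genes described above, Aqp1 is a water channel, and Nrp2 is a receptor for secreted semaphorins such as Sema3c. Aqp1 was at 39.7, 11.6 and 6.65 CPM in control and at 7.78, 42.0 and 5.57 CPM in CKO, a course much like that of Tyrp1. Sema3c was at 25.1, 4.65 and 2.46 CPM in control and 3.50, 30.6 and 4.01 in CKO. Ing4 matched in shape only, since it lay between 96.4 and 103 CPM. The likeness rested on the 2 high pools: over the other 4 libraries r was between 0.287 for Nrp2 and 0.873 for Gpnmb. Among the pigment cell genes themselves the median r of the 15 pairs was 0.876 over the 6 libraries, and it was lowest for Mlana with Mitf (0.253).

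**Figure D5:**
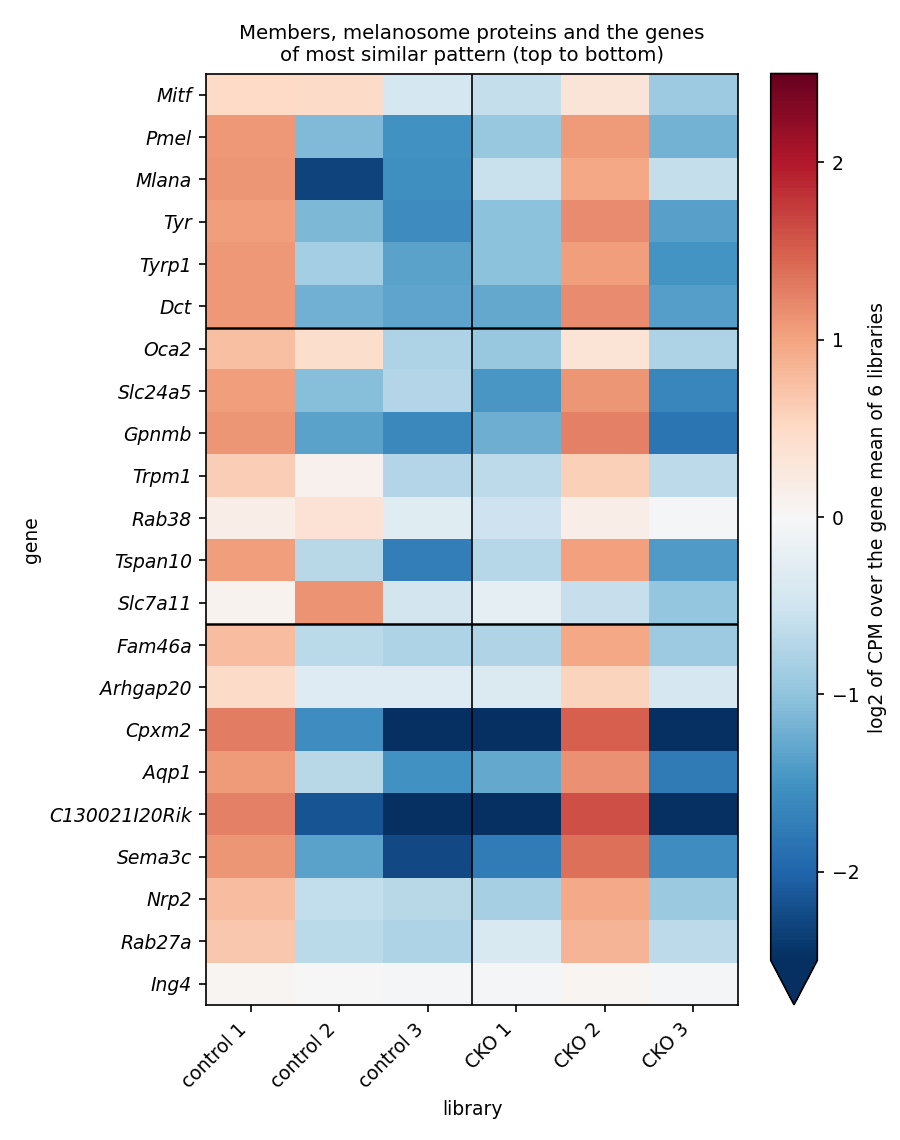
Log2 of CPM over the gene's mean of the 6 libraries, for the 6 pigment cell genes (top), the 7 melanosome proteins in the table (middle) and the other genes of most similar pattern (bottom), with the colour scale clipped at its lower end. Control replicate 1 and CKO replicate 2 are the high columns for most genes, and Slc7a11 is high in control replicate 2 instead, at 178 CPM.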

How the data were processed

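RNA-Seq of 6 libraries of E14.5 mouse lenses was analysed. Per the study's methods and the submitters' processing notes, the authors trimmed paired-end reads of strand-specific polyA libraries with Trim Galore, aligned them to mm10 with TopHat2 2.0.13 and deposited raw fragment counts per RefSeq gene from HTSeq 0.6.1, for genes with a mean FPKM (Cuffdiff 2.2.1) above 1 in either group. Titles number the CKO libraries 1 to 3, and these numbers are used. The deposited counts and sample descriptions name the same libraries CKO2, CKO3 and CKO4, in that order. CKO replicate 2 here is therefore CKO3 there.

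Library sizes were scaled by TMM, and edgeR 4.0.16 in R 4.3.3 was used for a robust fit and its quasi-likelihood test. Log2 CPM for correlations used a prior count of 1, and permutation tests log2 CPM with an offset of 0.5. Replicates differed by more than sampling noise (chi-square of 15.4 to 141 per degree of freedom), so none was a copy of another. DESeq2 1.42.0, limma voom 3.58.1, other scalings and filters, a replicate block and libraries left out were the alternatives. Positions came from GENCODE M21, and the plots from matplotlib 3.10.9.

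Genes were named from the 6, those genes of the other lists that did not overlap between groups, had an unadjusted p under 0.05 or were among the 4 of highest mean CPM in their list, and the 10 genes most like the 6 among those with a mean of at least 1 CPM, and others are said to be picked after their values were seen. The members and lists were chosen with earlier results of these data known.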

Additional observations from a re-analysis of the deposited data

How the results depend on the processing

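Of the 12879 genes tested, 0 had an adjusted p under 0.05 in edgeR and 457 an unadjusted p under 0.05. The number with an adjusted p under 0.05 was 85 with DESeq2's Wald test, 1 with total counts and no TMM factors, and between 0 and 1 with each library left out in turn. Genes whose groups did not overlap numbered 1077, 1700 with total counts, and 2771 without control replicate 1 and CKO replicate 2 together, where 2 pools a group are easier to separate. The causes were not tested.

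The median log2 fold change of the 6 pigment cell genes was 0.06, between 0.06 and 0.14 with the other tests, scalings and filters, and from -1.08 to 1.33 with each library left out. The ranges were -1.11 to 1.43 for Tyr, -1.28 to 1.06 for Tyrp1, -1.29 to 1.31 for Dct, -1.04 to 1.34 for Pmel, -0.43 to 2.01 for Mlana and -0.98 to -0.30 for Mitf. Tyrp1 changed sign with total counts (0.015), where the median of all genes moved from 0.0019 to 0.10. Dct changed sign with the replicate block (-0.012) and without control replicate 1 and CKO replicate 2 together (-0.050). Without these 2 libraries the list medians that changed sign were those of mesenchyme (-0.06), surface ectoderm (-0.03), trafficking (-0.05) and the Mitf family and regulators (0.03). All these values of the 6 genes are within the intervals of the fit to all libraries.

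No clear pairing of control and CKO pools by their replicate numbers, taken from the titles, was seen, though 3 pools a group cannot exclude it. Deviations from the group means correlated at -0.487, 0.0899 and 0.442 for numbers 1, 2 and 3, and not every library correlated best with its own number. The pools numbered 3 correlated best with each other, whereas control replicate 1 did so with CKO replicate 2 (0.558). By the numbering of the deposited counts, the numbers 2 and 3 that both groups hold gave 0.0884 and -0.480. With the title number as a replicate block, 0 genes had an adjusted p under 0.05 and 516 an unadjusted one in edgeR, Mitf alone among the pigment cell genes.

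With 3 pools a group, the SE was larger than the log2 change for each member but Mitf. Sox10, Rpe65 and other markers not in the table were not analysed here.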
